A study of Mus musculus with 6 samples.

Results

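The genes described here encode neuropeptide precursors and the proteins packed with them into dense-core vesicles. The 6 precursor genes were *Cck*, *Penk*, *Pdyn*, *Tac1*, *Adcyap1* and *Nts*, and the 4 granin genes were *Scg2*, *Vgf*, *Chga* and *Chgb*. All 10 were among the 50508 gene symbols listed in each library, and all 10 were above 0 in at least 1 library and entered the test across 19504 genes. They were read in primary neurons of newborn C57Bl/6J mice, which received lentivirus about a day after plating, with 3 libraries per group. Both groups carried dCas9-VP160, a nuclease-dead Cas9 fused to a transcriptional activator, driven by the Ef1alpha promoter, which is not restricted to neurons. The control group, Ctrl-dCas9A, carried a guide against the bacterial gene LacZ (sgLacZ). The other group, Kcna1-dCas9A, carried a guide against the promoter of *Kcna1* (sgKcna1), the gene of the potassium channel subunit Kv1.1. The labels give the tissue as hippocampus and the paper's methods give it as cortex, and the age of the cultures at RNA extraction differs between sections of the paper's methods. The paper states for its experiments in general that they were repeated independently, but neither source says of these libraries that they came from separate cultures, so p-values measure the spread between these libraries, which may be technical.

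Neuropeptides are cut from larger precursor proteins inside dense-core vesicles, by prohormone convertases and then by carboxypeptidase E. Granins are acidic proteins that aggregate in the Golgi and take part in the formation of these vesicles, and several of them are themselves cut into peptides. In forebrain cultures, cholecystokinin is made by both glutamatergic and GABAergic neurons, whereas enkephalin, dynorphin, tachykinin and neurotensin precursors are made by smaller sets of neurons, and many of these genes are transcribed in response to neuronal activity and cAMP through the factor CREB. The study compared these cultures to assess how specific the guide against *Kcna1* was, and the comparison is read here for the neuropeptide system.

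The listed values were whole numbers that summed to between 999047 and 999717 in a library. They were taken to be per-million values rounded by the authors, with the number of reads unknown. A single gene, *Gm42418*, held 19.1%, 19.5% and 16.3% of the total with sgLacZ and 16.3%, 20.2% and 15.3% with sgKcna1. The part of this share in the differences below was not tested. The libraries were made with a 3' end kit. Whether the values were divided by transcript length is not given, so levels of different genes are compared as listed. *Kcna1* itself stood at 16, 16 and 16 with sgLacZ and at 68, 47 and 65 with sgKcna1, a log2 difference of 1.83 (SE 0.16, adjusted p = 0.034, limma). In 5 of the 6 fits that left out 1 library its adjusted p was between 0.112 and 0.143, and with the replicate number as a block it was 0.11. Ctrl-dCas9A replicate 3 stood apart from the other controls: of 7459 genes compared, it was the control library nearest to the Kcna1-dCas9A mean for 64.2%, against 17.4% and 18.5% for replicates 1 and 2. Values without it are given beside the named genes whose call changes without it.

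The promoters of several of these genes are textbook targets of CREB, which binds the cAMP response element. Its letters, TGACGTCA for the full element and TGACG for its core, were searched on both strands in RefSeq promoter windows (GRCm38.p6, from 250 bases before to 50 bases after each transcription start). Every full element also holds the core, on both strands. Of the 10 genes, 8 had a window, and *Penk* and *Vgf* had no entry. The full element was present in 2 of the 10 windows of these 8 genes and in 1.79% of 32851 windows of the same length. The core was present in 8 of their 10 windows, which belong to 7 of the 8 genes, and in 20.8% of all windows. The 30 bases around the match nearest to the start are shown for the 7 genes on the strand of the gene, with the matched letters in capitals, to show that the genes with the full element, *Scg2* and *Chgb*, hold it at nearly the same distance from the start, 68 and 72 bases before it. CGTCA is the core read on the other strand.
Scg2, chr1:79440076-79440105 on the minus strand, 68 bases before the start: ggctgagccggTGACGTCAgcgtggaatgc
Chgb, chr2:132781559-132781588 on the plus strand, 72 bases before the start: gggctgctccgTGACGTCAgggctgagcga
Chga, chr12:102554885-102554914 on the plus strand, 44 bases before the start: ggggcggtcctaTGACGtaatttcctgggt
Cck, chr9:121495724-121495753 on the minus strand, 47 bases before the start: cctgctggactgCGTCAgcactgggtaaac
Tac1, chr6:7555006-7555035 on the plus strand, 43 bases before the start: gctctacaggctCGTCAcgcctgagataaa
Adcyap1, chr17:93198914-93198943 on the plus strand, 91 bases before the start: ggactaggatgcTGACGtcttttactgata
Nts, chr10:102490567-102490596 on the minus strand, 166 bases before the start: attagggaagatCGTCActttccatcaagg

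The windows of *Pdyn* held neither form. *Tac1* had another core 197 bases before the start, and the *Adcyap1* site also lay 242 bases before the other annotated start of that gene. These matches are descriptions of letters, and binding was not measured.

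**Figure D1:**
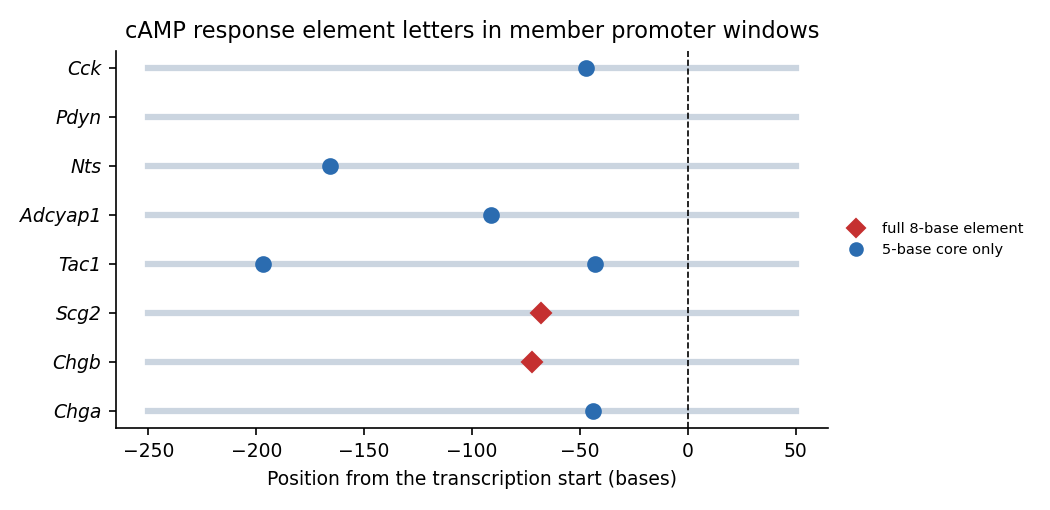
Positions of the full cAMP response element (diamonds) and of its core alone (circles) in bases from the transcription start, in the RefSeq promoter windows of 8 genes. Each grey bar marks a window searched, and for *Adcyap1* only the window with the site 91 bases before the start is drawn. The full element lies 68 bases before the start in *Scg2* and 72 bases before it in *Chgb*, and *Pdyn* has no match.

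*Cck*, the precursor of cholecystokinin, was by far the most abundant precursor of the 6. It was listed at 208, 217 and 194 with sgLacZ and at 228, 238 and 222 with sgKcna1. Every Kcna1-dCas9A library lay above every control, with means of 206 ± 11.6 and 229 ± 8.08 (SD, n = 3). The log2 difference was 0.15 (SE 0.09, 95% interval -0.05 to 0.35), or 1.11-fold with an interval from 0.967 to 1.28, and it did not pass the test (limma, adjusted p = 0.32). An exact two-sided permutation test gave p = 0.1, the smallest that 3 libraries against 3 can give. In bulk RNA, fewer cells of a type and less RNA per cell cannot be told apart, for *Cck* and for every gene below.

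The other 5 precursors were each listed at 8 or less in every library. *Pdyn*, the precursor of dynorphins, stood at 8, 6 and 3 with sgLacZ and at 4, 3 and 3 with sgKcna1. *Nts*, the precursor of neurotensin, stood at 5, 8 and 2 against 3, 4 and 3. In both genes the control libraries were the more scattered, and the groups overlapped.

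*Adcyap1*, which encodes PACAP, an activator of adenylyl cyclase, was listed at 1, 4 and 4 with sgLacZ and at 2, 4 and 2 with sgKcna1. *Tac1*, the precursor of substance P, was listed at 2, 4 and 2 against 2, 1 and 2. *Penk*, the precursor of enkephalins, was listed at 0, 2 and 1 against 1, 1 and 0. *Penk* was the only one of the 10 genes listed at 0 in any library, and rounding to whole numbers is a large part of values of this size.

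For these 5 genes the log2 differences of value + 1 were -0.55 for *Pdyn* (SE 0.34), -0.34 for *Nts* (SE 0.41), -0.05 for *Adcyap1* (SE 0.44), -0.44 for *Tac1* (SE 0.33) and -0.19 for *Penk* (SE 0.49). All 5 were negative, and the adjusted p ran from 0.37 to 0.98 (limma). The intervals were wide: that of *Pdyn* ran from -1.35 to 0.25 and that of *Adcyap1* from -1.09 to 0.99, so that differences of either sign of the size seen for *Cck* could not be detected here. Summed over the 5 genes, the listed value was 16, 24 and 12 with sgLacZ and 12, 13 and 10 with sgKcna1, with overlapping groups. *Cck* held 90.0% to 94.2% of the summed value of the 6 precursors in the controls and 94.8% to 95.7% with sgKcna1.

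**Figure D2:**
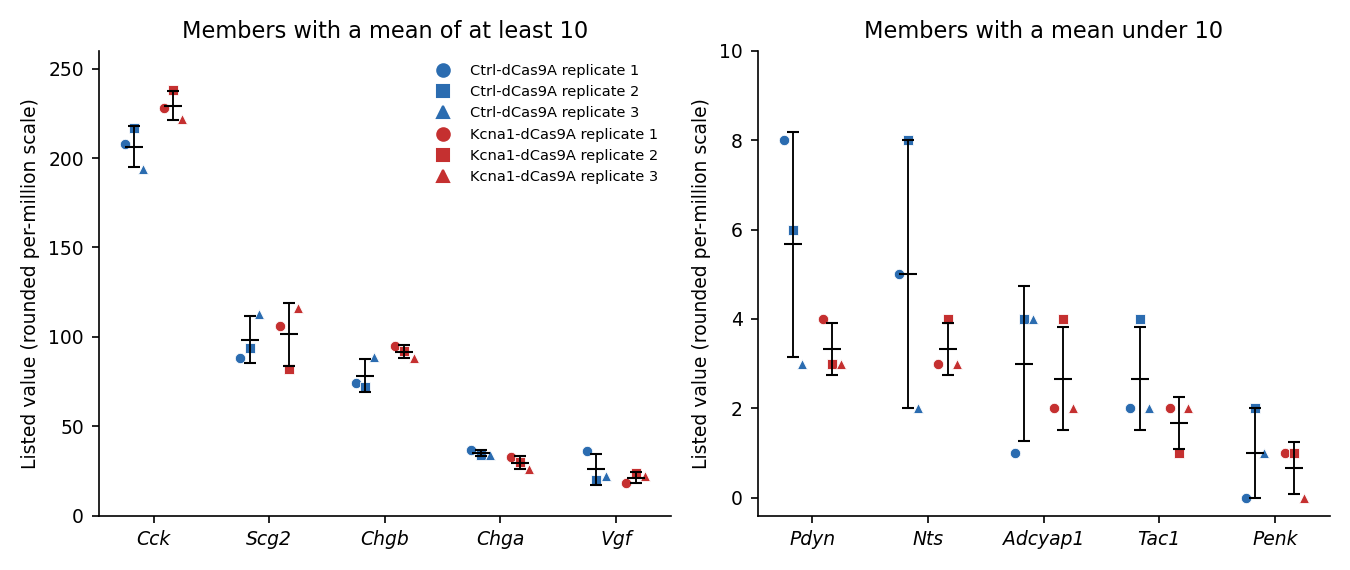
Listed values (rounded per-million scale) of the 10 genes in each library, with the 5 genes of mean 10 or more on the left and the 5 lower genes on the right, on separate linear axes. Blue marks Ctrl-dCas9A and red Kcna1-dCas9A, marker shapes give the replicate, and black bars give the mean and SD of 3 libraries. *Cck* and *Chga* are the only genes whose groups do not overlap, *Cck* higher and *Chga* lower in Kcna1-dCas9A.

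The granins were more evenly expressed. *Scg2*, which encodes secretogranin II, the precursor of secretoneurin, was listed at 88, 94 and 113 with sgLacZ and at 106, 82 and 116 with sgKcna1. The Kcna1-dCas9A libraries held both the lowest and the highest value of the 6. The log2 difference was 0.04 (SE 0.16, interval -0.34 to 0.41, adjusted p = 0.91 by limma), or 1.03-fold with an interval from 0.789 to 1.33.

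*Chgb*, chromogranin B, was listed at 74, 72 and 89 with sgLacZ and at 95, 92 and 88 with sgKcna1. The groups overlapped only through control replicate 3, at 89, and Kcna1-dCas9A replicate 3, at 88. The log2 difference was 0.23 (SE 0.11, interval -0.04 to 0.50, adjusted p = 0.27 by limma), or 1.17-fold. Without control replicate 3 it was 0.32 (SE 0.067) with an adjusted p of 0.045, a fit in which 14.2% of all genes tested were called, as against 1.16% with all libraries.

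*Chga*, chromogranin A, was listed at 37, 34 and 34 with sgLacZ and at 33, 30 and 26 with sgKcna1, so that every Kcna1-dCas9A library lay below every control. The log2 difference was -0.24 (SE 0.13, interval -0.54 to 0.07, adjusted p = 0.31 by limma), or 0.849-fold with an interval from 0.686 to 1.05. *Vgf*, a growth factor-inducible granin that is cut into several secreted peptides, was listed at 36, 20 and 22 against 18, 24 and 22. Its control replicate 1 lay well above the other 5 libraries, which ran from 18 to 24, and its log2 difference was -0.24 (SE 0.24, adjusted p = 0.52 by limma).

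Summed over the 4 granins, the listed value was 235, 220 and 258 with sgLacZ and 252, 228 and 252 with sgKcna1, with overlapping groups. Over all 10 genes the sum was 459, 461 and 464 against 492, 479 and 484, of which *Cck* made up the largest part. The order of the mean values, from the highest, was *Cck*, *Scg2*, *Chgb*, *Chga*, *Vgf*, *Pdyn*, *Nts*, *Adcyap1*, *Tac1* and *Penk*. Over the 6 libraries the ranges of neighbours in this order were apart for *Cck* and *Scg2*, for *Chgb* and *Chga*, and for *Vgf* and *Pdyn*, and overlapped for all other neighbours. *Scg2* was above *Chgb* in 5 of 6 libraries and *Chga* above *Vgf* in 6 of 6. Among the 19504 genes tested the mean of *Cck* lay at the 96.5th percentile, that of *Vgf* at the 72.0th and that of *Penk* at the 29.1st.

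Of the 10 genes, 0 passed an adjusted p of 0.05 in limma, and 0 had a p under 0.05 before adjustment. Among all 19504 genes, 226 (1.16%) passed, 68 of them higher and 158 lower in Kcna1-dCas9A, and 4529 had a p under 0.05 before adjustment. The count depended on which libraries entered: in 5 of the 6 fits that left out 1 library 0 genes passed (3332 to 3853 before adjustment), and in the fit without control replicate 3 2711 passed. With median-of-ratios factors, which rescale each library to the same median ratio over genes, 1719 genes (8.81%) passed, 962 higher and 757 lower, and still 0 of the 10. The groups did not overlap in 2 of the 10 genes, *Cck* and *Chga*, and in 22.2% of all genes tested. The log2 difference was positive in 3 of the 10 genes and negative in 7, with a median of -0.22, beside -0.02 over all genes tested in the same fit. For genes with a mean of at least 10 the median was 0.036 over the 5 such members and -0.06 over all 8050 such genes, so that the negative median of the 10 came with the low genes. Without control replicate 2 the median of the 10 was 0.015, and with any other single library left out it was between -0.27 and -0.11. Absence of a call does not show equal levels: among the 5 genes with a mean of at least 10 the interval was narrowest for *Cck*, from 0.967-fold to 1.28-fold, and widest for *Vgf*, from 0.573-fold to 1.26-fold.

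**Figure D3:**
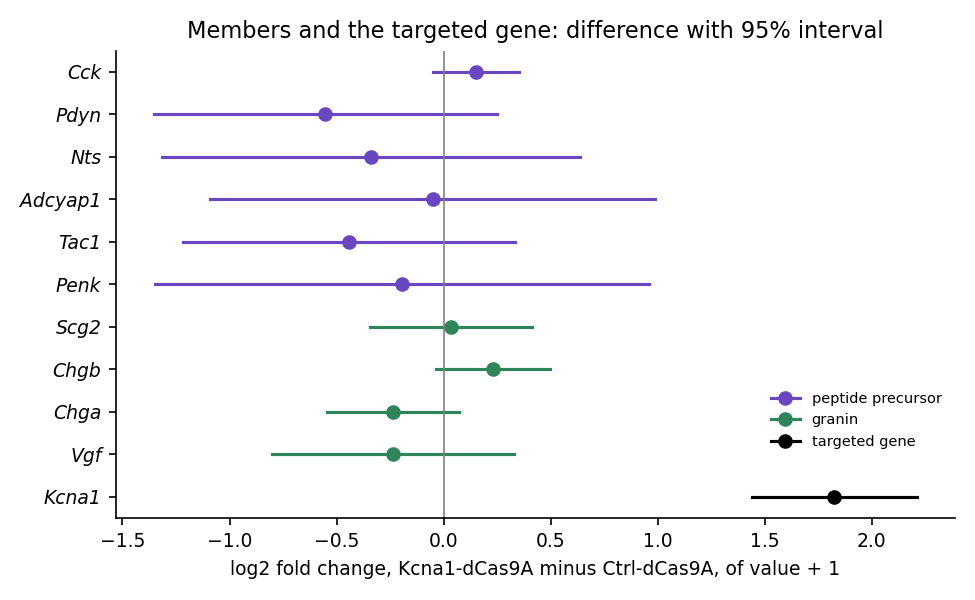
Log2 fold change of value + 1, Kcna1-dCas9A minus Ctrl-dCas9A, for the 10 genes and for *Kcna1*, with points for the estimate and lines for the 95% interval from limma (3 libraries per group). The interval of *Kcna1*, from 1.44 to 2.21, lies above 0 and every interval of the 10 genes includes 0.

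The rest of the neuropeptide system was read in 5 companion lists, of which 85 genes were tested. With all libraries 0 of the 85 passed (limma), beside 226 of all 19504 genes. Before adjustment 24 of the 85 had a p under 0.05, beside 4529 of all 19504 genes. Of 24 other neuropeptide precursors, 14 were tested and 10 were listed at 0 in every library (*Cartpt*, *Edn3*, *Hcrt*, *Kiss1*, *Nmu*, *Npff*, *Pomc*, *Rln3*, *Trh* and *Ucn3*). The median log2 difference of the 14 was 0.11, and 1 of them had groups that did not overlap, against 22.2% of all genes. This was *Npy*, the precursor of neuropeptide Y, an inhibitory peptide of interneurons. It was listed at 10, 11 and 15 with sgLacZ and at 17, 25 and 20 with sgKcna1, a log2 difference of 0.74 (SE 0.21, adjusted p = 0.095 by limma). With median-of-ratios factors, and likewise without control replicate 3, its adjusted p was 0.048, in fits that called 8.81% and 14.2% of all genes. *Sst*, the somatostatin precursor and the most abundant of this list, stood at 135, 123 and 114 against 126, 121 and 161 (log2 difference 0.12, adjusted p = 0.55). *Pnoc*, the nociceptin precursor, and *Grp*, the precursor of gastrin-releasing peptide, differed by 0.25 and -0.06 on the log2 scale with adjusted p of 0.51 and 0.85 (limma).

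Of 13 prohormone processing enzymes and their partners, 13 were tested and 0 passed. Groups were apart in 7 (53.8%, against 22.2% of all genes), 3 higher and 4 lower, and the median log2 difference was 0. The summed value of the list ran from 1199 to 1278 with sgLacZ and from 1315 to 1357 with sgKcna1, and *Cpe* made up the largest part. *Cpe*, carboxypeptidase E, which trims the basic residues left after cleavage, was listed at 661, 620 and 671 with sgLacZ and at 770, 827 and 760 with sgKcna1 (log2 difference 0.27, SE 0.08, adjusted p = 0.10 by limma). *Pcsk2*, a prohormone convertase, was listed at 31, 34 and 24 against 22, 20 and 18 (log2 difference -0.54, SE 0.17, adjusted p = 0.11). *Scg5*, which encodes the chaperone that *Pcsk2* needs to become active, was listed at 248, 241 and 216 against 199, 191 and 180 (log2 difference -0.30, SE 0.09, adjusted p = 0.11). The convertase and its chaperone were thus both listed lower in every Kcna1-dCas9A library than in any control, and *Cpe* higher, without passing the test. *Ctsl*, cathepsin L, a protease that also cuts proneuropeptides, stood at 48, 45 and 27 against 17, 22 and 21 (log2 difference -0.93, SE 0.24, adjusted p = 0.071). Without control replicate 3, all 4 of these genes were called, at adjusted p of 0.048 (*Cpe*), 0.035 (*Pcsk2*), 0.034 (*Scg5*) and 0.021 (*Ctsl*), beside 14.2% of all genes. With median-of-ratios factors only *Ctsl* of the 4 was called (0.036), and the adjusted p was 0.065 for *Cpe*, 0.14 for *Pcsk2* and 0.26 for *Scg5*, beside 8.81% of all genes.

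Of 24 genes of dense-core vesicle biogenesis and release, 24 were tested and 0 passed, with groups apart in 10 (41.7%, against 22.2% of all genes), 8 higher and 2 lower, and a median log2 difference of 0.06. Their summed value ran from 3209 to 3401 with sgLacZ and from 3886 to 4066 with sgKcna1. This separation came with 3 genes: without *Vamp2*, *Syt4* and *Kif1a*, the other 21 summed to between 1826 and 1912 against between 1830 and 1928. *Vamp2*, the vesicle SNARE synaptobrevin, was listed at 208, 217 and 371 with sgLacZ and at 573, 466 and 678 with sgKcna1 (log2 difference 1.14, SE 0.24, adjusted p = 0.056 by limma). Control replicate 3 was the control nearest to the Kcna1-dCas9A libraries. *Syt4*, a synaptotagmin found on dense-core vesicles, was listed at 861, 817 and 869 against 1092, 1105 and 1139 (log2 difference 0.39, SE 0.08, adjusted p = 0.055). *Ptprn*, a phosphatase-like protein of the dense-core vesicle membrane, was listed at 12, 24 and 28 against 39, 41 and 45 (log2 difference 1.01, SE 0.29, adjusted p = 0.095). These 3 genes were called with median-of-ratios factors, at adjusted p of 0.011 (*Vamp2*), 0.023 (*Syt4*) and 0.029 (*Ptprn*), in a fit that called 8.81% of all genes. Without control replicate 3, where 14.2% of all genes were called, the adjusted p was 0.021 for both *Vamp2* and *Syt4* and 0.063 for *Ptprn*.

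A further pair of this list was named after the values were seen. *Kif1a*, the kinesin that carries dense-core vesicles along axons, was listed at 273, 312 and 335 with sgLacZ and at 460, 425 and 419 with sgKcna1 (log2 difference 0.51, SE 0.10, adjusted p = 0.056 by limma). *Snap25*, a SNARE of the plasma membrane, was listed at 94, 89 and 86 against 66, 59 and 56 (log2 difference -0.57, SE 0.10, adjusted p = 0.053). *Vamp2* and *Snap25*, which join in the same SNARE complex, thus had differences of opposite sign. With median-of-ratios factors both genes of this pair were called, at adjusted p of 0.015 (*Kif1a*) and 0.036 (*Snap25*), beside 8.81% of all genes. Without control replicate 3 both were called as well, at 0.027 and 0.032, beside 14.2% of all genes.

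**Figure D4:**
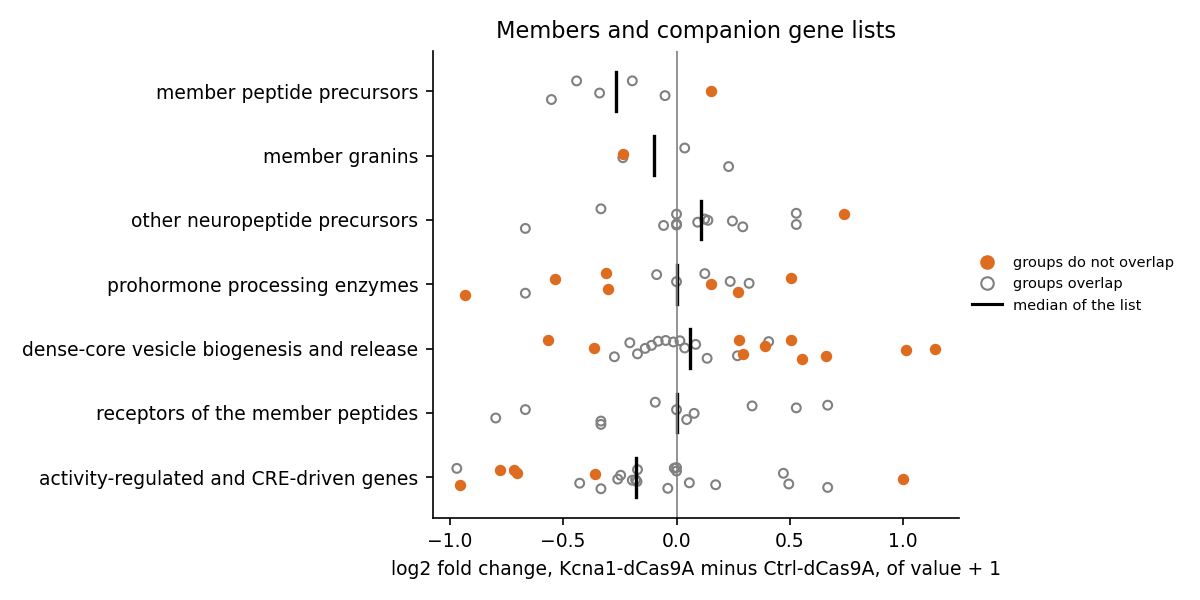
Log2 fold change of value + 1, Kcna1-dCas9A minus Ctrl-dCas9A, of each tested gene in the 6 precursors, the 4 granins and the 5 companion lists. Filled orange points are genes whose groups do not overlap, open points are genes whose groups overlap, and black lines are the list medians. The vesicle list spreads widest to the right, up to *Vamp2* at 1.14, while its median is 0.06.

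**Figure D5:**
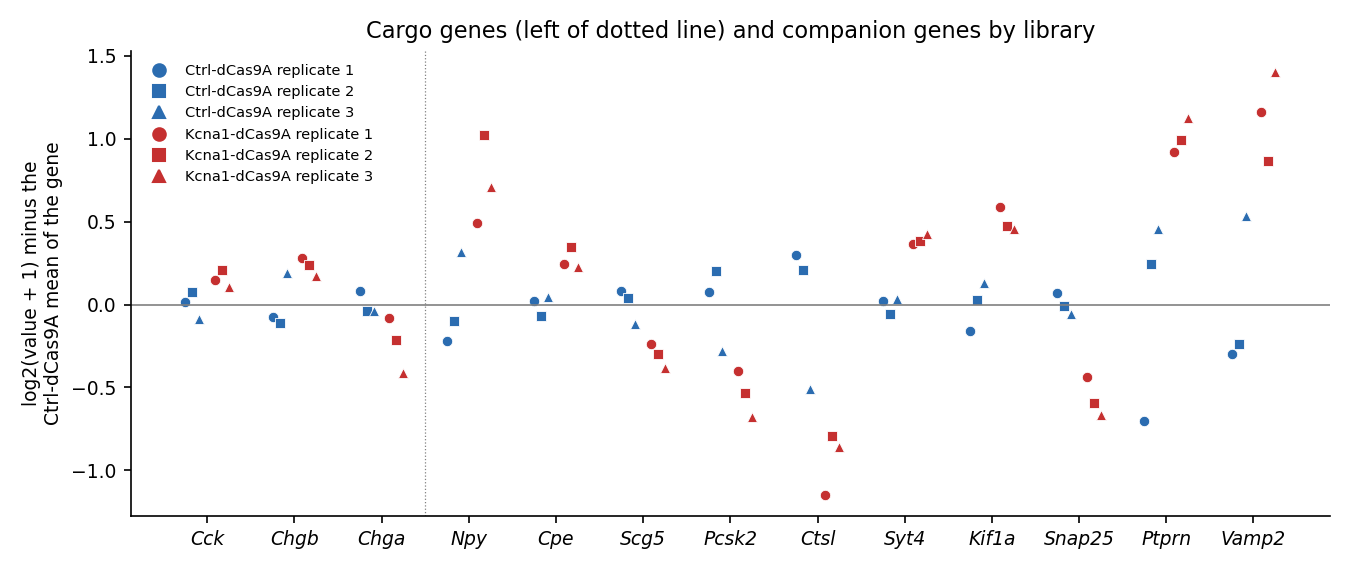
Log2(value + 1) in each library minus the Ctrl-dCas9A mean of the gene, for *Cck*, *Chgb* and *Chga* (left of the dotted line) and for 10 companion genes, chosen for the plot after their values were seen. Blue marks Ctrl-dCas9A and red Kcna1-dCas9A, with marker shapes for the replicate. Control replicate 3 (blue triangles) is the control nearest to the red points for every plotted gene except *Cck* and *Chga*. For *Cck* replicate 2 is nearest, and for *Chga* replicates 2 and 3 tie.

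Of 14 receptors of the 6 peptides, 11 were tested, 0 passed (0 before adjustment, limma), against 1.16% of all genes, and 0 had groups apart, against 22.2%, and *Cckar*, *Oprd1* and *Tacr2* were listed at 0 in every library. *Adcyap1r1*, the receptor of PACAP, was the most abundant, at 75, 82 and 86 with sgLacZ and 78, 92 and 81 with sgKcna1 (log2 difference 0.04, adjusted p = 0.82 by limma). The receptor was thus listed far above its own ligand gene *Adcyap1* in every library. *Sort1*, sortilin, which binds neurotensin, stood at 55, 56 and 59 against 61, 65 and 54 (log2 difference 0.08, adjusted p = 0.65).

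Of 25 activity-regulated and CREB-driven genes, 24 were tested and 0 passed, *Egr3* being listed at 0 throughout. Groups were apart in 6 (25.0%, near the 22.2% of all genes), 1 higher and 5 lower, and the median log2 difference was -0.18. The summed value of the list ran from 527 to 674 with sgLacZ and from 491 to 522 with sgKcna1. *Nr4a3*, an immediate early nuclear receptor, was listed at 225, 226 and 147 with sgLacZ and at 154, 144 and 138 with sgKcna1 (log2 difference -0.43, adjusted p = 0.20 by limma). Control replicate 3 lay within the range of the Kcna1-dCas9A libraries, and without it the adjusted p was 0.020, beside 14.2% of all genes called. *Dusp6*, a phosphatase that limits ERK signalling, was listed at 21, 17 and 16 against 11, 10 and 6 (log2 difference -0.96, SE 0.25, adjusted p = 0.073). Its adjusted p was 0.0498 with median-of-ratios factors, beside 8.81% of all genes called. *Fosl2* and *Inhba*, a Fos family factor and the activin A subunit, differed by -0.25 and 0.67 on the log2 scale, with adjusted p of 0.30 and 0.16.

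Markers of the cells in the cultures were read beside these values. Excitatory neuron markers, 0 of 10 called, summed to between 1906 and 2092 with sgLacZ and between 1808 and 1986 with sgKcna1. Inhibitory neuron markers, 0 of 11 called and *Pvalb* at 0 throughout, summed to between 356 and 432 against between 345 and 415. Neuronal markers were thus present in every library, and their sums overlapped between groups. Single neuronal markers stood apart in both directions, in 3 of 10 excitatory and 3 of 11 inhibitory genes, against 22.2% of all genes, and are named here after their values were seen. *Slc17a7*, a vesicular glutamate transporter, and *Camk2a*, a kinase of excitatory neurons, had log2 differences of 0.61 and 0.62, whereas the factor *Neurod6* and the inhibitory markers *Gad1*, *Slc32a1* and *Dlx2* were listed lower in every Kcna1-dCas9A library, the last 3 by log2 differences of -0.60, -0.51 and -1.12. With all libraries the adjusted p was 0.073 for *Slc17a7*, 0.069 for *Camk2a* and 0.066 for *Dlx2* (limma). With median-of-ratios factors *Slc17a7* (adjusted p = 0.028), *Camk2a* (0.020) and *Dlx2* (0.044) were called, beside 8.81% of all genes. Without control replicate 3 these were called too (0.033, 0.026 and 0.041), as were *Neurod6* (0.026) and *Gad1* (0.037), beside 14.2% of all genes.

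Astrocyte markers summed to between 961 and 1069 against between 702 and 718, with 6 of 10 apart, against 22.2% of all genes, and 3 of 10 called, against 1.16%. The 3 were lower: *Aqp4*, a water channel (log2 difference -1.42, adjusted p = 0.0486), *Sox9*, a glial transcription factor (-0.56, 0.0496), and *Aldoc*, a glycolytic enzyme (-0.54, 0.0496). The calls of these 3 genes, and those of *Olig2* and *C1qa*, lay close to the threshold. None of the 5 was called with the replicate block or in the 5 fits that left out 1 library other than control replicate 3. In those fits 0 genes of all passed. All 5 were called with median-of-ratios factors, beside 8.81% of all genes, and without control replicate 3, beside 14.2%. The 6 astrocyte markers apart were all lower. Of those that overlapped, named after their values were seen, *Gfap* (log2 difference -0.02) and *Aldh1l1* (-0.006) differed little. *Fgfr3* was lower (-0.27) and *S100b* higher (0.32).

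Oligodendrocyte lineage markers summed to between 66 and 98 against between 40 and 44, with 5 of 7 apart, against 22.2% of all genes, and 1 called, against 1.16%. This was *Olig2*, with a log2 difference of -1.05 (adjusted p = 0.0497). *Mog* was at 0 throughout. *Mbp*, a myelin protein gene of the same list, had groups apart the other way, at 3, 3 and 2 against 7, 4 and 7 (log2 difference 0.91, adjusted p = 0.11 by limma). Microglial markers summed to between 23 and 27 against between 55 and 73, with 4 of 8 apart, against 22.2% of all genes, and 1 called, against 1.16%. This was the complement gene *C1qa*, with a log2 difference of 1.61 (adjusted p = 0.0486). The 4 microglial markers apart were all higher. Of those that overlapped, named after their values were seen, *Csf1r* (1.19) and *Tyrobp* (0.19) were higher and *C1qc* (-0.19) and *Itgam* (-0.33) lower, all at single-digit values. Cell cycle genes, 0 of 8 called and 7 of 8 apart and lower, against 22.2% of all genes apart in either direction, summed to between 121 and 126 against between 71 and 75. Endocrine and vascular markers, 0 of 6 called and *Th* and *Dbh* at 0 throughout, summed to between 7 and 12 against between 4 and 8. The part of these markers in the values of the 10 genes and of the companion lists was not tested.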

How the data were processed

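RNA from 3 Ctrl-dCas9A (sgLacZ) and 3 Kcna1-dCas9A (sgKcna1) libraries, grouped by the sample labels, was read from the deposited files, each of which holds a score per gene, a whole number. It was read as a rounded per-million value, because libraries summed to nearly the same total and because, at means from 4 to 8, the variance between replicates was 0.705 (Ctrl-dCas9A) and 0.504 (Kcna1-dCas9A) times the mean. Reads per library are therefore unknown, and no count model, depth interval or detection floor was used. The paper's methods give Bowtie2 and NCBI37/mm9. The submitters' processing notes give STAR 2.7, featureCounts, DESeq2 and mm10. The annotation and the scaling are not given in the sources used here.

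Log2(value + 1) was tested with limma 3.58.1 (R 4.3.3; linear fit, then moderated variances that follow the mean level) for the 19504 genes that 1 library or more listed above 0. The model held the group alone, and calls required a Benjamini-Hochberg adjusted p under 0.05 over all genes. Fold changes are on the scale of value + 1, which understates changes of low genes. Single genes were also given the exact two-sided permutation test. One was planned for the summed values as well and is not given, because the genes of a sum were chosen with results known. The procedure was tested on simulated data. The members and lists were chosen with earlier results of these data known. Named were the 10 genes, *Kcna1*, list genes that passed, the 2 highest and the 2 largest differences (mean of at least 10) of each companion list, and genes at 0; others are said to have been named after their values were seen. *Eipr1* was matched through its older symbol.

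Promoter windows came from RefSeq (GRCm38.p6), to which 35641 of the 50508 symbols matched. The replicate numbers come from the labels. Same-numbered libraries had correlations of deviations of 0.014, 0.114 and 0.154, so they were not treated as pairs. Alternatives were other pseudocounts, filters, scalings and variance models, the replicate block and each library left out.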

Additional observations from a re-analysis of the deposited data

How the results depend on the processing

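Of 144 fits of the 10 genes under 15 alternatives, 1 was called (*Chgb* without Ctrl-dCas9A replicate 3), 131 had the reported sign and 13 had the other. *Cck*, *Pdyn*, *Tac1*, *Chga* and *Chgb* kept their sign in every alternative in which they were tested. *Adcyap1* turned to 0.011 with median-of-ratios and 0.030 with upper-quartile factors. With these factors, in the same order, *Cck* was 0.24 and 0.27, *Chgb* 0.32 and 0.35 and *Chga* -0.15 and -0.12. The median of the 10 genes was -0.15 and -0.12. With 1 library left out, *Pdyn* ran from -0.88 to -0.30, *Tac1* from -0.56 to -0.19, *Chga* from -0.31 to -0.15, *Chgb* from 0.17 to 0.32 and *Cck* from 0.11 to 0.19, while *Adcyap1* ran from -0.49 to 0.17, *Nts* from -0.77 to 0.022, *Penk* from -0.63 to 0.17, *Scg2* from -0.068 to 0.18 and *Vgf* from -0.39 to 0.014. The cause was not tested.

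The count of all genes called, 226, was 627 and 475 with pseudocounts 0.1 and 5, 1543 and 2289 with means of at least 1 and 10, 1719 with median-of-ratios and 868 with upper-quartile factors, 201 without the trend, 2884 with robust variances, 0 with the replicate block (4326 before adjustment), and 0 to 2711 with 1 library left out, 0 in 5 of those 6 fits and 2711 without Ctrl-dCas9A replicate 3. In the same order the count of companion genes called was 3 and 1, 6 and 10, 8 and 3, 1, 10, 0 and 0 to 16, against 0. Members called ran from 0 to 1 with 1 library left out. With the replicate block, a fit in which same-numbered libraries share a term, *Kcna1* was 1.83 with an adjusted p of 0.11, and with 1 library left out it ran from 1.73 to 1.99. The block left 0 genes called in all.

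The summed granin difference, 6.33, was 20.8 with median-of-ratios and 25.7 with upper-quartile factors, and -2.5 to 16.5 with 1 library left out. The summed precursor difference, 17.3, was 31.8 with median-of-ratios and 36.6 with upper-quartile factors, and 8.5 to 26 with 1 library left out. Median-of-ratios factors moved the median of all genes by 0.03 and that of genes with a mean of at least 10 by 0.08 (log2). Values in single digits are limited by rounding, and the depth behind them is unknown.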

Other observations

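The balance between the chromogranins was looked at after the values were seen. The ratio of *Chgb* to *Chga* was 2.0, 2.12 and 2.62 with sgLacZ and 2.88, 3.07 and 3.38 with sgKcna1, so that the groups did not overlap. This ratio uses values of the same library and is not moved by scaling. *Chgb* held 31.5%, 32.7% and 34.5% of the summed granin value with sgLacZ and 37.7%, 40.4% and 34.9% with sgKcna1. *Chga* held 15.7%, 15.5% and 13.2% against 13.1%, 13.2% and 10.3%. Control replicate 3 lay next to the Kcna1-dCas9A libraries in all 3 quantities. The quantities were chosen for their separation, so no test is given.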
